A study of Rattus norvegicus with 8 samples.

Results

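The 9 genes of the interferon response and of class I antigen presentation, Irf1, Irf7, Mx1, Mx2, Isg20, Psmb8, Psmb9, Tap1 and B2m, were followed across cultured rat neurons treated with an antioxidant enzyme, with amyloid oligomers or with both in turn. Every probe was taken whose RefSeq accession maps to 1 of these 9 symbols, which gave 10 probes among the 30367 of the array, and all 9 genes were among the 22459 genes or unnamed accessions tested. The cells were primary cortical and hippocampal neurons from embryonic day 18 Sprague Dawley rats, supplied by BrainBits and treated after 7 days in vitro. CAT-SKL is an engineered catalase, a hydrogen peroxide-degrading enzyme, that carries a signal for import into peroxisomes, and ADDL stands for soluble oligomers of amyloid-beta. One pair of treatments was a single agent at 1 µM for 24 h, CAT-SKL or ADDL. The other pair was sequential, 24 h of CAT-SKL followed by 24 h of ADDL (CAT-SKL+ADDL) or the reverse (ADDL+CAT-SKL), each agent again at 1 µM. Each of the 4 treatments had 2 arrays. Every array set treated RNA, labelled with Cy5, against RNA of vehicle-treated neurons, labelled with Cy3. The labels do not say how many cultures or litters the RNA came from, so p-values measure only the spread between these samples, which may be technical.

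Interferons reach a cell through surface receptors that activate IRF and other transcription factors, and these switch on many genes through short promoter elements. Part of that programme blocks viruses inside the cell, as Mx GTPases and RNA-degrading enzymes do. Another part feeds class I antigen presentation: inducible proteasome subunits cut proteins, the TAP transporter moves the peptides into the endoplasmic reticulum, and beta-2-microglobulin pairs with the class I heavy chain that displays them. Neurons are known for keeping class I molecules low at rest, and in the developing brain class I and beta-2-microglobulin are also known for a part in shaping synapses.

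The promoters of the members are shown because interferon signals are read through elements in promoters. RefSeq starts on build GRCr8 were matched for 8 of the 9 members, all but Mx2, and the 250 bases before each start were searched on both strands for GAAANNGAAA, the core of the interferon-stimulated response element. No matches overlapped each other in these windows. The windows of B2m (chr3:129549080-129549329, plus strand), Isg20 (chr1:142239809-142240058, plus strand), Irf7 (chr1:205800024-205800273, minus strand) and Tap1 (chr20:4668544-4668793, minus strand) read as follows, 5′ to 3′, with the matches in capitals and the start just after the last base.
B2m: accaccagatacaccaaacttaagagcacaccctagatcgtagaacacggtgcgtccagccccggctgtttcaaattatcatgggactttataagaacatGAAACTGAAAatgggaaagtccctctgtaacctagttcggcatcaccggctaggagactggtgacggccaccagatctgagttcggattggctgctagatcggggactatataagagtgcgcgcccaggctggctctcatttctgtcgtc
Isg20: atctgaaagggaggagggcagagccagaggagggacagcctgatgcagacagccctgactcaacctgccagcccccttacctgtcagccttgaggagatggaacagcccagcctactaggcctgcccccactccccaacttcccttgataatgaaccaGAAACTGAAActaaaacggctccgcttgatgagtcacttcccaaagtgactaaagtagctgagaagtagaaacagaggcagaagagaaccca
Irf7: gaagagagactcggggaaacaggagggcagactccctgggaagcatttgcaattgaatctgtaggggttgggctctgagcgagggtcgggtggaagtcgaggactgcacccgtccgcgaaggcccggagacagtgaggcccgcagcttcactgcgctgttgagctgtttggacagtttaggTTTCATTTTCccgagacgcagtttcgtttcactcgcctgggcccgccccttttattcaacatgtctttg
Tap1: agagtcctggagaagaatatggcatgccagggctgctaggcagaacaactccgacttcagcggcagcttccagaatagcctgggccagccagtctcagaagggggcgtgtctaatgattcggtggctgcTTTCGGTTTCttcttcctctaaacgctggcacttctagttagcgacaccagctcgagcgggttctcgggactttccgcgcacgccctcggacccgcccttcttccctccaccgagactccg
The response element core lay 150 to 141 bases before the start of B2m and 92 to 83 bases before that of Isg20, and both matches read GAAACTGAAA. The share of promoters with these exact letters was not counted, and B2m and Isg20 changed in opposite directions against vehicle. Tap1 had its match on the opposite strand 121 to 112 bases before the start, and Irf7 had its own, also on the opposite strand, 69 to 60 bases before the start. The core was not in the windows of Irf1, Mx1, Psmb8 and Psmb9, which says only that these letters are not there. Tap1 and Psmb9 are read in opposite directions from starts 457 bases apart, and their windows share 44 bases. Of all 33469 promoter windows, 3.41% held the response element core, against 4 of the 8 members. A match of letters is a description and not evidence that a factor was bound.

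Probes that stood clear of background made up 73.3% to 81.0% of an array in the treated channel and 71.5% to 77.4% in the vehicle channel, and no spot was saturated. The number of arrays limits the precision of every value. Between the arrays of CAT-SKL+ADDL the difference was about that between repeated spots, with an SD of 0.0855 (log2, 13221 probes) beside a spot noise of 0.0848. Their mean therefore entered the fit as 1 sample, for 7 in all. By their positions on the slide, the single treatments lay in one row and the sequential ones in the other, so row and kind of treatment cannot be told apart. No array had the dyes swapped, so a dye effect of a probe cannot be told apart from a treatment effect against vehicle, whereas a constant one cancels between treatments. The test against vehicle asks whether the ratio differs from 0 and takes no account of how vehicle cultures vary. All 12 neuronal markers on the array were well above background in both channels on every array.

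**Figure D1:**
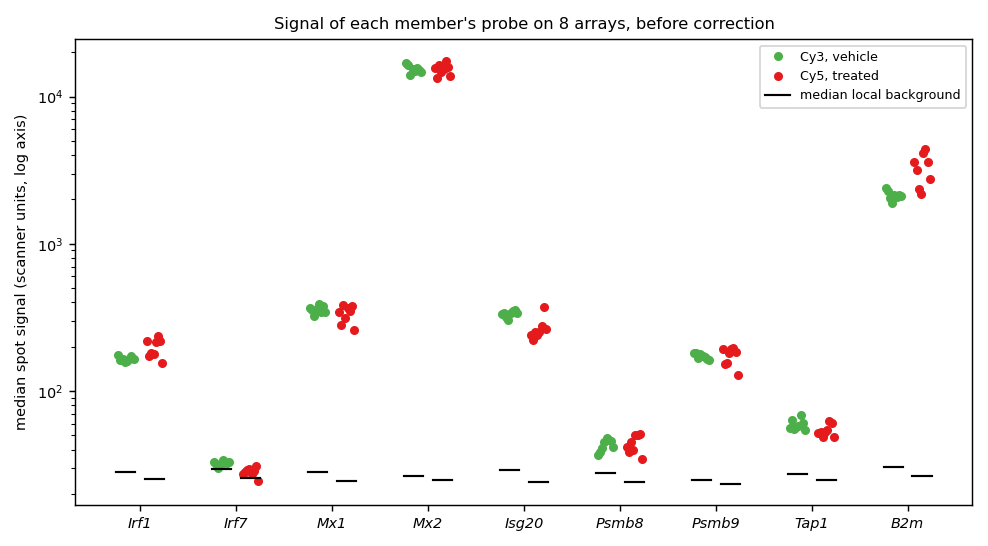
Median spot signal in scanner units (log axis) of the probe that stands for each member, on 8 arrays, with green points for vehicle (Cy3) and red points for treated RNA (Cy5) and black bars for the median local background. Irf7 lies at its background, Psmb8 and Tap1 little above theirs, and heights of different genes are not comparable because each is a different probe.

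Signals of the members set how much each ratio can say. In the vehicle channel Mx2 read 13926 to 16779 scanner units before correction, B2m 1901 to 2396, Mx1 322 to 388 and Isg20 304 to 352, with a local background of 25.5 to 34.5. These probes and those of Irf1 (157 to 175) and Psmb9 (163 to 182) were well above background in both channels on all 8 arrays. Psmb8 (36.8 to 47.8) and Tap1 (54.2 to 69.0) also passed on all 8, but so close to background that a change in them is compressed. Irf7 was well above background on 0 of 8 arrays in the vehicle channel and on 2 of 8 in the treated channel, so no fold is given for it. The treated signals of B2m ranged from 2174 to 4393 and exceeded the vehicle signal on all 8 arrays before any correction.

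The members that passed the test against vehicle were B2m and Isg20. B2m was higher than in vehicle on all 8 arrays and Isg20 lower on all 8 after normalization. After CAT-SKL alone B2m rose 1.32-fold and Isg20 fell to 0.695 of vehicle, and after ADDL+CAT-SKL B2m rose 1.35-fold. These were 2 of 9 members called at an adjusted p below 0.05 after CAT-SKL, 1 higher and 1 lower, and 1 of 9 called, higher, after ADDL+CAT-SKL. Over all genes tested the same call was made for 2.62% after CAT-SKL (0.837% higher, 1.78% lower) and for 0.454% after ADDL+CAT-SKL (0.24% higher, 0.214% lower). Median centring of each array, used instead of loess, turned the split over all genes from 188 higher and 400 lower to 1417 and 402 after CAT-SKL, and from 54 and 48 to 297 and 77 after ADDL+CAT-SKL, while the 3 member calls were kept. After ADDL and after CAT-SKL+ADDL, 0 of 9 members and 0% of all genes were called by limma with Benjamini-Hochberg adjustment. At an unadjusted p below 0.05 the members numbered 5, 3, 4 and 3 of 9 after CAT-SKL, ADDL, CAT-SKL+ADDL and ADDL+CAT-SKL, where the shares of all genes were 21.2%, 19%, 11.3% and 17.6%. Without Irf7, which lies at background, the median log2 change of the other 8 members was -0.08, 0.08, -0.07 and -0.04 in that order, and that of all genes was 0.00 in each. These members lay on both sides of 0 in every treatment. The RNA is from whole cultures, in which fewer cells of a type and less RNA per cell cannot be told apart.

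**Figure D2:**
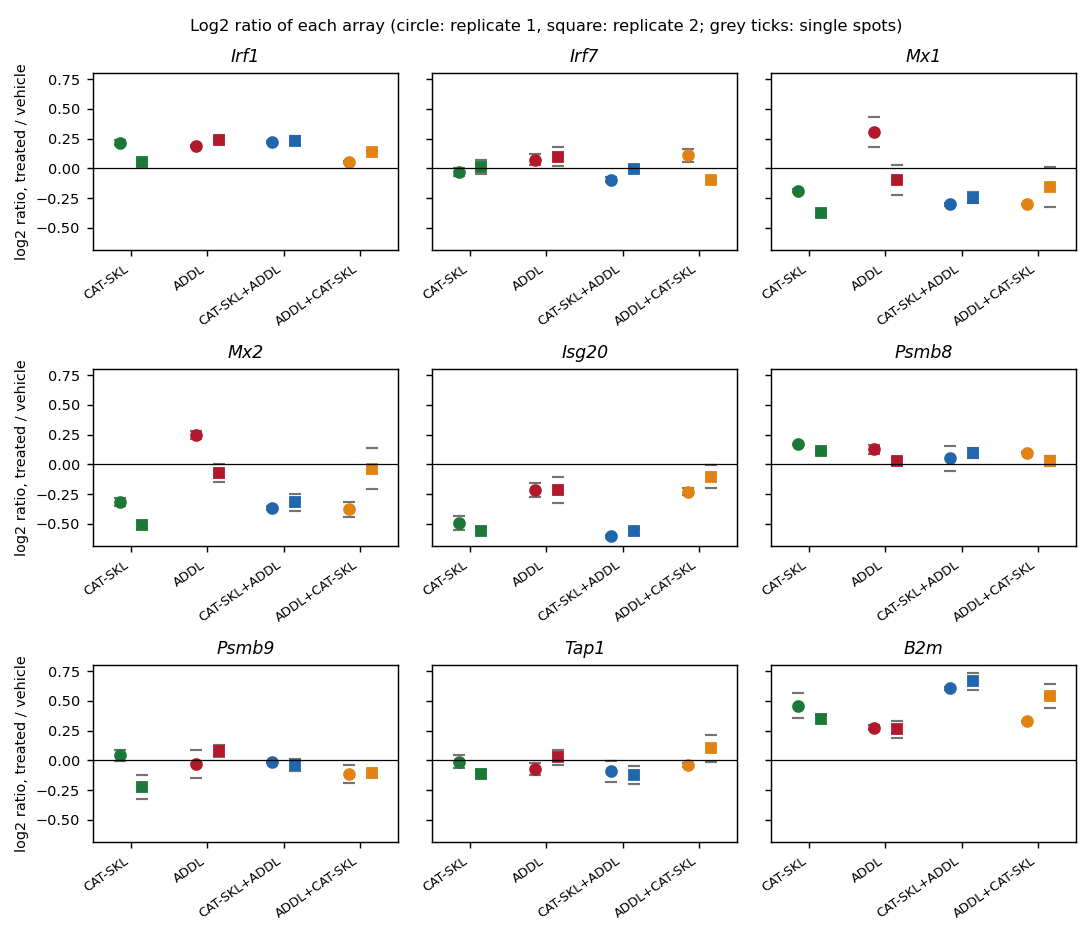
Log2 ratio of treated over vehicle of each member on each array (circle, replicate 1; square, replicate 2; grey ticks, the 2 spots of the probe), by treatment. B2m lies between 0.26 and 0.66 and Isg20 between -0.60 and -0.10 on all arrays, while Irf7, near its background, scatters around 0.

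Neither of the 2 transcription factors passed the test. Irf1, an activator of class I pathway genes such as Tap1 and Psmb9, had log2 ratios to vehicle of 0.22 and 0.05 after CAT-SKL, 0.19 and 0.24 after ADDL, 0.22 and 0.23 after CAT-SKL+ADDL, and 0.06 and 0.14 after ADDL+CAT-SKL. All 8 were above 0, as were those of B2m and Psmb8, and 7.47% of all genes had 8 of 8 arrays above 0. The fitted change of Irf1 was largest after CAT-SKL+ADDL, at 0.23 ± 0.09 (SE, n = 1 after averaging, limma adjusted p = 0.363), and 0.21 ± 0.06 after ADDL (n = 2, limma adjusted p = 0.126). Its second probe was dim and read between -0.08 and 0.02, so the probes of Irf1 did not show the same size of change. Irf7, the factor that amplifies type I interferon production, read between -0.09 and 0.11 at the level of background.

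Among the antiviral effectors, Isg20 had the most even pattern. Isg20 (probe A_42_P557394), an exonuclease that degrades single-stranded RNA, had log2 ratios of -0.49 and -0.56 after CAT-SKL, -0.22 and -0.22 after ADDL, -0.60 and -0.56 after CAT-SKL+ADDL, and -0.23 and -0.10 after ADDL+CAT-SKL. All 8 arrays were below 0, which held for 7.99% of all genes, and all 16 spots were below 0, from -0.62 to -0.01. By sample, Isg20 in the 3 with CAT-SKL first or alone lay below the 4 with ADDL first or alone. That held for 6.48% of all genes, and the grouping was chosen after the values were seen. Isg20 fell by 0.52 ± 0.06 on the log2 scale after CAT-SKL (SE, n = 2, limma adjusted p = 0.0216), the 12th smallest p of all genes. The call was lost without CAT-SKL replicate 1 (limma adjusted p = 0.32), with the deposited ratios (limma adjusted p = 0.178) and with the replicate number as a block (limma adjusted p = 0.0575). After the other treatments the fitted changes of Isg20 were -0.22 ± 0.06 for ADDL, -0.58 ± 0.08 for CAT-SKL+ADDL and -0.17 ± 0.06 for ADDL+CAT-SKL, with limma adjusted p of 0.106, 0.201 and 0.185. The value after CAT-SKL+ADDL was as large as that after CAT-SKL, and it rests on 1 sample with a wider interval, -0.77 to -0.40. Before normalization the treated signal of Isg20 exceeded the vehicle signal on 1 array, ADDL+CAT-SKL replicate 1 (372 against 352), an array whose median treated signal over all probes was 128 against 109 for vehicle.

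Mx1 and Mx2, GTPases that trap viral nucleoproteins in the nucleus and in the cytoplasm of rat cells respectively, had like profiles over the arrays (Pearson r = 0.94 over 7 samples, a description). Mx1 had log2 ratios of -0.19 and -0.37 after CAT-SKL, 0.31 and -0.10 after ADDL, -0.30 and -0.25 after CAT-SKL+ADDL, and -0.30 and -0.16 after ADDL+CAT-SKL. Mx2 read -0.32 and -0.51, 0.25 and -0.07, -0.36 and -0.32, and -0.38 and -0.04 in the same order. Both genes were below 0 on 7 of 8 arrays and above 0 on ADDL replicate 1, so that the 2 ADDL arrays lay on either side of 0. The largest fitted change was that of Mx2 after CAT-SKL, -0.41 ± 0.10 (SE, n = 2, limma adjusted p = 0.0716), and Mx1 stood at -0.28 ± 0.10 there (limma adjusted p = 0.148). Neither gene passed the test in any treatment, but with the CAT-SKL+ADDL arrays as separate samples Mx2 was called after CAT-SKL (limma adjusted p = 0.0317) and after CAT-SKL+ADDL (limma adjusted p = 0.0497). The rat Mx genes are close paralogs, and whether their probes also bind RNA of the other gene was not tested.

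Among the members, the inducible proteasome subunits Psmb8 and Psmb9 and the transporter subunit Tap1 lay near vehicle with the correction used here. None of them passed the test. Psmb8, which replaces Psmb5 in the immunoproteasome, had log2 ratios of 0.17 and 0.11 after CAT-SKL, 0.13 and 0.03 after ADDL, 0.05 and 0.09 after CAT-SKL+ADDL, and 0.10 and 0.03 after ADDL+CAT-SKL. Psmb9, which replaces Psmb6, read 0.04 and -0.22, -0.03 and 0.08, -0.01 and -0.04, and -0.11 and -0.11. Tap1, a subunit of the peptide transporter, read -0.01 and -0.12, -0.07 and 0.03, -0.09 and -0.12, and -0.04 and 0.10. Psmb8 was above 0 on all 8 arrays by small amounts, and the other pair crossed 0. These sizes depend on the processing: on the log2 scale the deposited ratios ran from -0.07 to 0.63 for Psmb8. For Tap1 they ran from -0.525 to 0.14. Among these 3 genes the smallest limma adjusted p was 0.194, for Psmb8 after CAT-SKL (0.14 ± 0.06, SE, n = 2). The 95% intervals after the single treatments ran from -0.25 to 0.27 over the 3 genes, and the closeness of Psmb8 and Tap1 to background compresses their ratios. The neighbours Tap1 and Psmb9 did not follow each other closely over the 7 samples (Pearson r = 0.29, a description).

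B2m (probe A_64_P092718), the light chain of class I molecules and of the neonatal Fc receptor, was the member with the highest ratios. Its log2 ratios were 0.46 and 0.35 after CAT-SKL, 0.28 and 0.26 after ADDL, 0.61 and 0.66 after CAT-SKL+ADDL, and 0.33 and 0.54 after ADDL+CAT-SKL. All 16 spots were above 0, from 0.19 to 0.73. The CAT-SKL+ADDL arrays, 1 sample in the fit, were the highest and the ADDL arrays the lowest. The arrays of CAT-SKL and ADDL+CAT-SKL overlapped. Of all genes, 31.8% were higher without overlap in CAT-SKL+ADDL against ADDL and 33.4% in CAT-SKL+ADDL against ADDL+CAT-SKL. The shares were 18.3% in CAT-SKL against ADDL and 19.1% in ADDL+CAT-SKL against ADDL. In none of these comparisons was B2m called. B2m rose by 0.41 ± 0.07 on the log2 scale after CAT-SKL (SE, n = 2, limma adjusted p = 0.0359) and by 0.44 ± 0.07 after ADDL+CAT-SKL (SE, n = 2, limma adjusted p = 0.0449). The change was 0.63 ± 0.09 after CAT-SKL+ADDL (n = 1 after averaging, limma adjusted p = 0.201) and 0.27 ± 0.07 after ADDL (n = 2, limma adjusted p = 0.0972). The value of 0.63 rests on 1 sample, in a comparison in which no gene was called. The call of B2m after CAT-SKL was lost without either CAT-SKL array or either ADDL array, with limma adjusted p between 0.056 and 0.424, and that after ADDL+CAT-SKL without any of the 6 arrays of CAT-SKL, ADDL and ADDL+CAT-SKL, with limma adjusted p between 0.0661 and 0.309. Both calls were also lost with the replicate number as a block (limma adjusted p = 0.0686 after CAT-SKL and 0.104 after ADDL+CAT-SKL) and with the deposited ratios (0.178 and 0.32), and that after ADDL+CAT-SKL with no background correction (0.0882) and with no filter on dim probes (0.0511). The direction was the same under every alternative run.

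**Figure D3:**
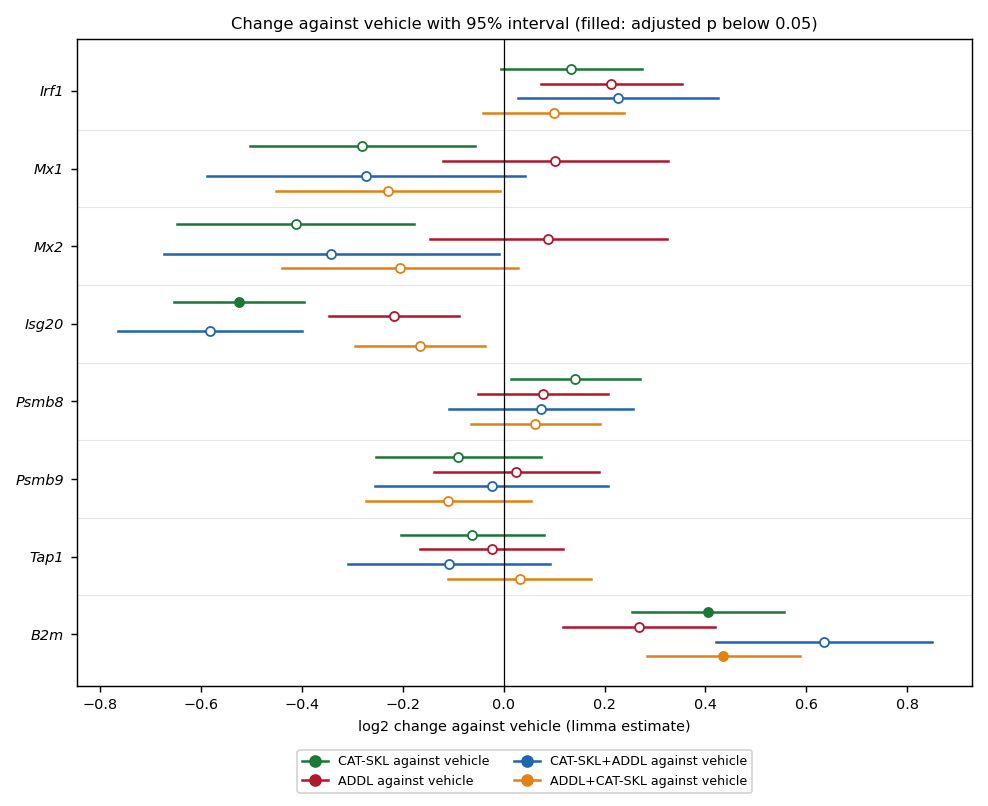
Fitted log2 change against vehicle (limma, points) with 95% intervals (lines) for 8 members in 4 treatments; filled points have an adjusted p below 0.05, and Irf7, at background, is not drawn. Filled points are Isg20 after CAT-SKL (-0.52) and B2m after CAT-SKL (0.41) and after ADDL+CAT-SKL (0.44).

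Treatments were then set against each other, to look at adding CAT-SKL to ADDL and at the order of the agents. Sequential treatments gave 24 h of each agent in turn and lay in another slide row than the single ones. Against ADDL alone, the added agent therefore cannot be told apart from the longer treatment or the row. Between the sequential treatments, which agent came first cannot be told apart from which came last. In none of the 4 comparisons was a member called, and limma called 0% of all genes in each. CAT-SKL against ADDL had 3 of 9 members at an unadjusted p below 0.05 (8.7% of all genes), CAT-SKL+ADDL against ADDL 3 (3.9%), ADDL+CAT-SKL against ADDL 1 (8.39%), and CAT-SKL+ADDL against ADDL+CAT-SKL 1 (5.64%). These comparisons share arrays, those with ADDL among them, so their values are not independent of one another.

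In CAT-SKL against ADDL all 3 antiviral effectors were lower. The difference of log2 ratios was -0.31 for Isg20 (95% interval -0.49 to -0.13, limma adjusted p = 0.541), -0.50 for Mx2 (-0.83 to -0.17, limma adjusted p = 0.541) and -0.38 for Mx1 (-0.70 to -0.07, limma adjusted p = 0.546). Both Mx genes were highest on ADDL replicate 1, and without that array the difference was -0.18 for Mx1 and -0.34 for Mx2, against -0.31 for Isg20. Both CAT-SKL arrays lay below both ADDL arrays for these 3 of the 8 members above background, and 22% of all genes were lower without overlap. B2m was the 1 member higher without overlap, at 0.14 (-0.08 to 0.35), against 18.3% of all genes.

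With both agents, the fitted values of Mx1 and Mx2 lay below those of ADDL alone in either order. That of Isg20 was lower when CAT-SKL came first. In CAT-SKL+ADDL against ADDL the difference was -0.37 for Isg20 (95% interval -0.59 to -0.14), -0.43 for Mx2 (-0.84 to -0.02) and -0.38 for Mx1 (-0.76 to 0.01), each with a limma adjusted p of 1. CAT-SKL+ADDL is 1 sample here, and without ADDL replicate 1 the differences of Mx2 and Mx1 were -0.27 and -0.17. B2m was higher by 0.37 (0.10 to 0.63, limma adjusted p = 1). With the averaged pair as 1 sample, 4 of the 8 members above background were lower without overlap (34.9% of all genes) and 1 was higher (31.8%). When ADDL came first, in ADDL+CAT-SKL against ADDL, Isg20 differed by 0.05 (-0.13 to 0.23), Mx1 by -0.33 (-0.65 to -0.02, limma adjusted p = 0.586), Mx2 by -0.29 (-0.63 to 0.04) and B2m by 0.17 (-0.05 to 0.38). Without ADDL replicate 1 these differences were -0.13 for Mx1 and -0.14 for Mx2. Of the 8 members above background, 3 were lower without overlap, Irf1, Mx1 and Psmb9 (20.6% of all genes), and 1 higher, B2m (19.1%). The arrays of Mx2 overlapped, with ADDL+CAT-SKL replicate 2 at -0.04 and ADDL replicate 2 at -0.07. The interval of Isg20 there holds differences from -0.13 to 0.23, so it does not show that the treatments act alike.

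By the order of the agents, Isg20 was the member furthest apart. In CAT-SKL+ADDL against ADDL+CAT-SKL the difference of Isg20 was -0.42 (95% interval -0.64 to -0.19, limma adjusted p = 0.857), the 43rd smallest p of all genes. B2m differed by 0.20 (-0.06 to 0.46), Irf1 by 0.13 (-0.12 to 0.37), Mx1 by -0.04 (-0.43 to 0.34) and Mx2 by -0.14 (-0.54 to 0.27). In that comparison, with CAT-SKL+ADDL as 1 sample, 2 of the 8 members above background were lower without overlap (33.7% of all genes) and 3 higher (33.4%). Looked at over the 7 samples, a description chosen after the values were seen, Isg20 lay between -0.58 and -0.49 in the 3 samples in which CAT-SKL was given first or alone and between -0.23 and -0.10 in the 4 in which ADDL was, a gap of 0.26. All 3 were below the other 4 for 6.48% of all genes and above for 5.85%, and 12 genes including Isg20 were below with a gap at least as wide. Because the split was chosen with the values of Isg20 seen, its place among these genes is no test. No other member was separated in this way.

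**Figure D4:**
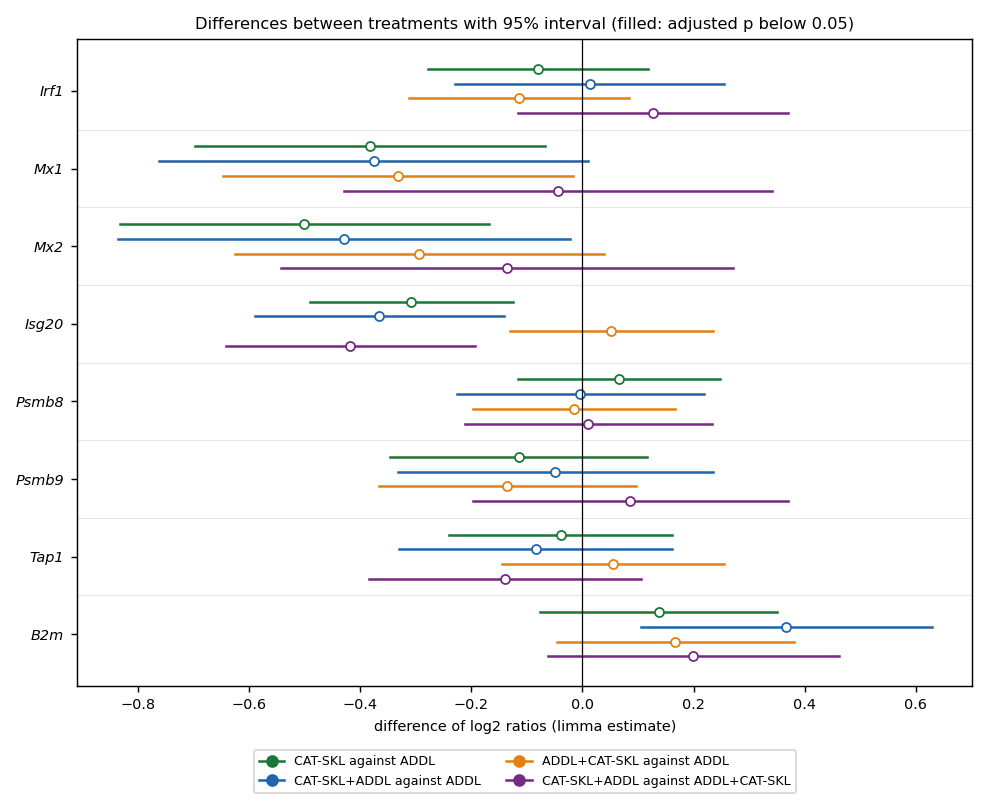
Fitted difference of log2 ratios between treatments (limma, points) with 95% intervals (lines) for 8 members in 4 comparisons; no point is filled because no adjusted p was below 0.05. Isg20 lies between -0.42 and -0.31 wherever CAT-SKL was the only or the first agent on the side named first, and at 0.05 in ADDL+CAT-SKL against ADDL.

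The rest of the pathway was read from lists of other genes. Of 25 interferon receptor and signalling genes 19 were tested, and 1 was called in 1 treatment: Myd88, the adaptor of Toll-like receptors, rose by 0.31 ± 0.06 on the log2 scale after CAT-SKL (SE, n = 2, limma adjusted p = 0.0492). Of all genes, 2.62% were called there, 0.837% of them higher than vehicle and 1.78% lower. With the deposited ratios 0 genes were called after CAT-SKL, so this call was lost. How it held under the other alternatives was not looked at. Myd88 was above 0 on all 8 arrays, from 0.24 to 0.47. It read 0.34 and 0.27 after CAT-SKL, 0.47 and 0.42 after ADDL, 0.45 and 0.40 after CAT-SKL+ADDL, and 0.24 and 0.43 after ADDL+CAT-SKL. Its ratios after ADDL and after CAT-SKL+ADDL, where limma called no gene, were thus higher than after CAT-SKL. Irf3, the factor that starts interferon-beta transcription, was -0.28 and -0.33 after CAT-SKL+ADDL and -0.18 to 0.10 elsewhere, with a limma adjusted p of 0.205 there.

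Other interferon-stimulated genes lay above vehicle more often than below it after loess, and 0 of them were called by limma. With median centring of the arrays, more lay above than below after ADDL only. Of 38 listed, 26 were tested, and 19, 18, 17 and 19 of them had a fitted change above 0 after CAT-SKL, ADDL, CAT-SKL+ADDL and ADDL+CAT-SKL, where 49.3%, 50%, 48.6% and 48.6% of all genes did. Their median log2 change was 0.04, 0.04, 0.07 and 0.02, beside 0.00 for all genes. With arrays centred on the median and no loess, 13, 21, 13 and 11 of the 26 were above 0, and without ADDL replicate 2 the count after ADDL was 11. At an unadjusted limma p below 0.05, 7, 3, 5 and 3 were higher (9.6%, 9.83%, 5.32% and 8.07% of all genes) and 1, 0, 1 and 1 were lower (11.6%, 9.18%, 6% and 9.53%). Oas2, a sensor of double-stranded RNA, was below 0 on 7 of 8 arrays, from -0.36 to 0.04, with a limma adjusted p of 0.0505 after CAT-SKL. Ifi27 was above 0 on all 8 arrays, from 0.03 to 0.60, and Igtp, an immunity-related GTPase, read 0.58 and 0.28 after ADDL and -0.22 to 0.28 elsewhere (limma adjusted p after ADDL 0.0798 and 0.0994). The second probe of Igtp read -0.07 to 0.18. Probes of Ifit1, Ifit3 and Cxcl10, genes that interferon induces strongly in many cells, were well above background on 0 of 8 arrays. That gives a bound and no level. Other genes of the list, Ifit2, Isg15, Rsad2 and Usp18 among them, passed the filter, and these 4 read -0.08 to 0.27.

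Around B2m, the class I heavy chain genes RT1-A1 and RT1-A2 were above vehicle on 8 and 7 of 8 arrays but passed no test. Of all genes, 7.47% were above 0 on 8 of 8 arrays. Among other class I genes, RT1-CE5 read -0.24 to 0.06, RT1-N3 -0.06 to 0.10 and RT1-S3 -0.05 to 0.26. Of 31 antigen presentation genes 21 were tested and 0 called, with a median log2 change between 0.00 and 0.05 in the 4 treatments. RT1-A2 read 0.45 and 0.23 after CAT-SKL and -0.03 to 0.19 elsewhere (limma adjusted p = 0.0505 after CAT-SKL). RT1-A1 read 0.57 and 0.13 after CAT-SKL, 0.51 and 0.39 after ADDL, and 0.01 to 0.30 after the sequential treatments (limma adjusted p = 0.0882 after CAT-SKL and 0.077 after ADDL), and its second probe -0.22 to 0.26. RT1 class I genes are near-identical and their probes may share RNA, so each is uncertain. B2m was highest after CAT-SKL+ADDL, where RT1-A1 and RT1-A2 lay between 0.09 and 0.30. Of the class II genes, Cd74, RT1-Ba and RT1-Da, and their regulator Ciita, were well above background on 0 of 8 arrays. The class II genes RT1-Bb, RT1-Db1, RT1-DMa and RT1-DMb passed the filter and read -0.12 to 0.18. The third inducible proteasome subunit, Psmb10, read 0.22 and 0.52 after ADDL+CAT-SKL and -0.03 to 0.20 elsewhere (limma adjusted p = 0.0882), while its constitutive counterpart Psmb7 and the counterparts Psmb5 and Psmb6 of Psmb8 and Psmb9 lay between -0.18 and 0.16 with 0 of 3 called.

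**Figure D5:**
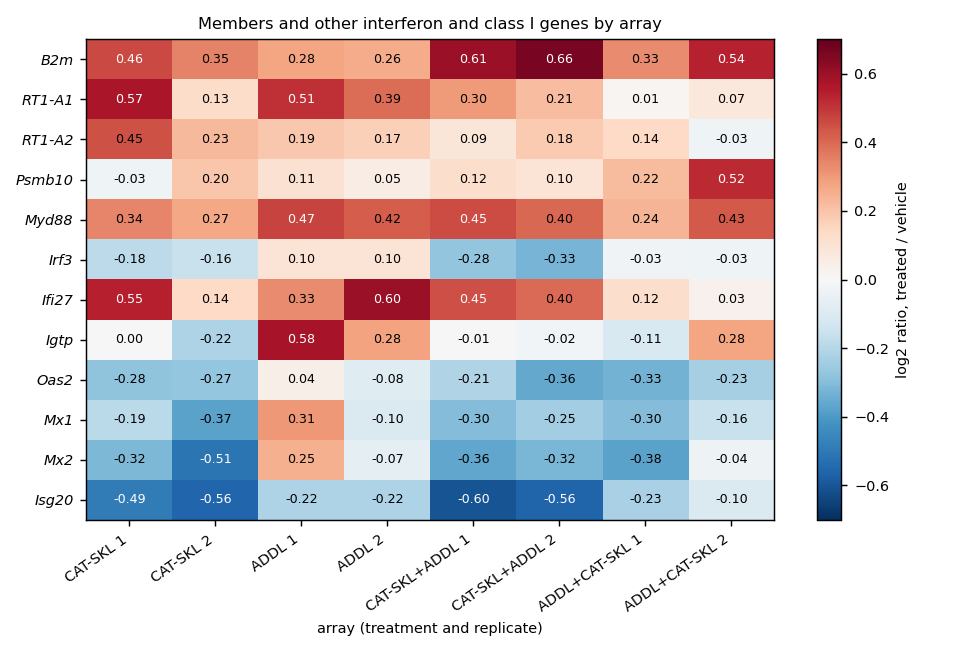
Log2 ratio of treated over vehicle (colour and printed value) of 4 members and 8 other interferon and class I genes on each of 8 arrays. B2m and Myd88 are above 0 and Isg20 below 0 on every array, while Mx1, Mx2 and Igtp are highest on ADDL replicate 1.

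Markers of other cell types were read beside these genes. Of 16 microglial markers, which in brain tissue come from cells with high B2m, 13 or 14 were well above background on each array, while the brightest probes of Itgam and Ptprc were so on none. Their summed treated signal above background was 4471 and 5271 after CAT-SKL, 4340 and 5277 after ADDL, 5870 and 6253 after CAT-SKL+ADDL, and 3851 and 5355 after ADDL+CAT-SKL, against 3841 to 4452 in vehicle. The median log2 ratio of the 14 tested was 0.14 and 0.05, 0.18 and 0.10, 0.09 and 0.04, and -0.12 and 0.02 in the same order of treatments. One microglial marker, Fcer1g, was called after CAT-SKL (0.57 ± 0.07, SE, n = 2, limma adjusted p = 0.0261), where 0.837% of all genes were called higher. Of the 14 tested, 9 had a fitted change above 0 there and 5 below.

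Astrocyte and oligodendrocyte markers had a wider spread than the members. The 9 astrocyte markers on the array were all well above background, with medians of 0.82 and 0.20 after CAT-SKL, 0.46 and 0.81 after ADDL, 0.58 and 0.52 after CAT-SKL+ADDL, and 0.29 and -0.02 after ADDL+CAT-SKL. Their summed treated signal ran from 8198 to 23374 against 9000 to 10393 in vehicle. The 9 oligodendrocyte lineage markers, of which 8 or 9 were well above background, had medians of 0.70 and 0.32, 0.30 and 0.47, 0.66 and 0.71, and 0.11 and -0.09. Of these markers 3 were called higher after CAT-SKL, against 0.837% of all genes. Summed, they read 1730 to 7098 against 2662 to 3364 in vehicle. The part of any of these cell types in the values of B2m, Isg20 or the RT1 genes was not tested.

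Genes with the most similar profile to each member were named as a description, by Pearson r over the 7 samples. Over so few samples many genes reach a high r: from 13 genes for B2m to 147 for Mx2 had an r above 0.9. Nearest to B2m were Ube2l6, the conjugating enzyme of ISG15, an interferon-induced ubiquitin-like protein (r = 0.93), and Cisd1 (r = 0.93). Ube2l6 was above 0 on all 8 arrays, from 0.15 to 0.38, and Cisd1 ranged from -0.03 to 0.08. Nearest to Isg20 were Garin5b (r = 0.995) and Sema4f (r = 0.994), to Mx1 Wnt10b (r = 0.995) and Or6f1 (r = 0.994), and to Mx2 Igtp (r = 0.997) and Ceacam9 (r = 0.996). Nearest to Irf1 were Ribc1 (r = 0.98) and Fbxo16 (r = 0.98), and to Psmb9 Cxcr3 (r = 0.99) and C16h19orf44 (r = 0.98). For Psmb8 they were Spats1 and Rtca (r = 0.97 each), for Tap1 Qng1 and Pou3f4 (r = 0.97 each), and for Irf7, at background, Unc45a and Dhx40 (r = 0.97 each).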

How the data were processed

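The 8 files are scanner output of 2-colour arrays, read by the authors with Agilent Feature Extraction 11.5, per the submitters' processing notes. They hold, per the file headers, the median signal intensity and local background intensity of each spot in both dyes, flags for outliers and for signal above background, and a dye-normalized log10 ratio of Cy5 over Cy3 (column median 0), which is also the deposited value table, whose values matched within 0.005. The normalization steps before deposit are otherwise not given in the sources used here. Here the intensities were corrected with normexp (offset 50) and loess within each array, control spots at weight 0 and outlier-flagged spots left out, and the spots of a probe were averaged (limma 3.58.1 in R 4.3.3). A probe was kept if on 2 or more of the 8 arrays it exceeded background in the Cy3 or the Cy5 channel (25363 probes, 67 of them with a missing value), and the brightest kept probe stood for a gene. Accessions were named through RefSeq tables, which gave 17998 probes a symbol. One limma fit over 7 samples (residual df 3, prior df 5.05) gave 8 comparisons, with Benjamini-Hochberg adjustment over 22459 genes or accessions and a threshold of 0.05. The fit was tested on simulated data. A loess fit centres each array, so a shift of all RNA would not be seen.

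The members and all gene lists were chosen with earlier results of these data known. Named beside the members are listed genes called against vehicle, the 3 of each list with the smallest p against vehicle (1 gene of these lists is not reported here), and the 2 genes with the highest r to each member. Fcer1g, RT1-CE5, RT1-N3, RT1-S3, the genes said not to be above background and those set beside them as tested were named after their values were seen. Promoter windows came from RefSeq, build GRCr8. The labels' replicate numbers did not pair the samples: the correlations of same-numbered deviations from the group mean ran from -0.202 to 0.0784. Alternatives covered the counting of the CAT-SKL+ADDL arrays, normalization, background correction, the filter, the probe of a gene, the deposited ratios, a replicate block and each array left out.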

Additional observations from a re-analysis of the deposited data

How the results depend on the processing

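With the CAT-SKL+ADDL arrays as 8 separate samples in all, the members called were 3 after CAT-SKL (B2m, Isg20, Mx2), 2 after ADDL (B2m, Isg20) and 4 after CAT-SKL+ADDL (B2m, Irf1, Isg20, Mx2), in a fit that called 8.1%, 4.34% and 10.3% of all genes there. With arrays centred on the median and no loess, 1 was called after CAT-SKL+ADDL (B2m). With the deposited log10 ratios 0 were called after CAT-SKL and 0 after ADDL+CAT-SKL, in a fit that called 0 genes of all. After ADDL+CAT-SKL, 0 members were called with no background correction and 0 with no filter on dim probes. With the replicate number as a block (replicate block), 0 were called after CAT-SKL and 0 after ADDL+CAT-SKL, and all genes called after CAT-SKL numbered 6 in place of 588; the numbers do not pair the samples, and the limma adjusted p of Isg20 and B2m after CAT-SKL were then 0.0575 and 0.0686. Leaving out each array in turn gave 0 to 2 members after CAT-SKL (0 without CAT-SKL replicate 1; 1, Isg20, without CAT-SKL replicate 2 or either ADDL array) and 0 to 1 after ADDL+CAT-SKL (0 without any array of CAT-SKL, ADDL or ADDL+CAT-SKL), where a lone sample is assumed to vary like the other groups. The cause of these changes was not tested, apart from the smaller number of samples. Over the alternatives run, all genes called ranged from 0 to 1820 after CAT-SKL, 0 to 975 after ADDL, 0 to 2322 after CAT-SKL+ADDL and 0 to 886 after ADDL+CAT-SKL. Of 572 alternative values of members against vehicle, 17 had the other sign, none of them of a member called, and 29 of the 48 alternative values of the 3 calls kept the call. Isg20 after CAT-SKL kept it in 13 of 16 alternatives, B2m in 10 of 16 after CAT-SKL and in 6 of 16 after ADDL+CAT-SKL. Signal over background limits Irf7, Psmb8 and Tap1.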
